A study of Homo sapiens with 12 samples.

Results

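The 10 genes described here encode receptors, ligands, a receptor-modifying enzyme and transcriptional targets of the Notch pathway. The receptors are NOTCH1, NOTCH2 and NOTCH3, the ligands are JAG1, JAG2 and DLL1, the enzyme is the fucosyltransferase POFUT1, and the targets are HEY1, HEY2 and HES1. They were chosen by symbol: every probe annotated to a listed gene was taken, which gave 18 probes for 10 of the 20046 genes that the array's probes could be named for. Each of the 10 had a probe whose mean passed the background limit in some group, so all 10 were among the 12122 genes tested.

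Notch receptors are single-pass membrane proteins that are activated by ligands of the Jagged and Delta-like families on neighbouring cells. Ligand pulling exposes the receptor to cleavage by ADAM proteases and then by γ-secretase, and the freed intracellular domain joins the DNA-binding protein RBPJ and Mastermind-like coactivators in the nucleus. The best known direct targets are the HES and HEY genes, which encode basic helix-loop-helix repressors. POFUT1 adds O-fucose to the receptor's extracellular repeats, and fringe enzymes extend that sugar, which changes how a receptor responds to each ligand class.

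The samples were 12 Illumina BeadChip arrays of total RNA from a line labelled C4-2B, a human prostate cancer line derived from LNCaP, in a version (C4-2B/Rx2dox, also labelled C4-2B/181) in which doxycycline (dox) is meant to induce the osteoblast transcription factor RUNX2. There were 4 groups of 3 biological replicates: ethanol vehicle, dox, dihydrotestosterone (DHT, the androgen that activates the androgen receptor), and DHT with dox. Every group carried the inducible construct, spent 48 h in 5% stripped serum first and was harvested 48 h into treatment. The labels give DHT at 10 mM and dox at 250 µg/ml, printed here as stated; whether those units are right could not be settled. The design asks how RUNX2 changes the response to androgen, and no array received dox without the construct, so dox itself and the induced factor cannot be told apart.

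The deposited intensities ran from 84.1 to 27321.9 and had the same median of 137.6 on every array. With no detection calls in the table, the background limit was set at 147.5, the 95th percentile of 640 probes for olfactory and taste receptor, keratin-associated protein and defensin genes. The arrays of a group correlated at 0.9938 to 0.9954 on the log2 scale, and arrays of different groups at 0.9767 to 0.9932. RUNX2, the factor to be induced, was read by its tested probe at 206.8 to 225.8 on vehicle arrays, 244.6 to 293.1 on dox arrays, 270.9 to 313.0 on DHT arrays and 258.6 to 331.1 on DHT with dox arrays. The dox arrays were higher than vehicle by 0.33 log2 (limma adjusted p = 0.016), a call that ended on leaving out vehicle replicate 2 (0.056) or dox replicate 1 (0.085), or with the mean of the gene's probes (0.149). DHT arrays without dox were higher than vehicle by 0.41 log2 (limma adjusted p = 0.0148), and that call ended with the mean of the probes (0.17 log2, 0.239) or on leaving out vehicle replicate 2 (0.0553) or DHT replicate 1 (0.0854). Between DHT with dox and DHT arrays the difference was 0.08 log2 (limma adjusted p = 0.578), not called. DHT with dox arrays were higher than vehicle by 0.50 log2 (limma adjusted p = 0.000581), a call lost with the mean of the probes (0.20 log2, 0.0609). No source states whether the tested probe reads the transgene, and it cannot serve as a check of the labels. Lineage markers went against the labelled line: KLK3 (prostate-specific antigen) was above the limit on 1 of 12 arrays and KLK2 and FOLH1 on none. ESR1 (2157 to 4711), GATA3 (2472 to 4562) and TFF1 (6293 to 22780), which mark luminal breast epithelium, were above it on all 12. Every array read 2 of the 7 prostate luminal genes with a probe above the limit, and 7 of the 9 listed for breast luminal cells. All groups are therefore named by their labels, and every statement below is about arrays so labelled.

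**Figure D1:**
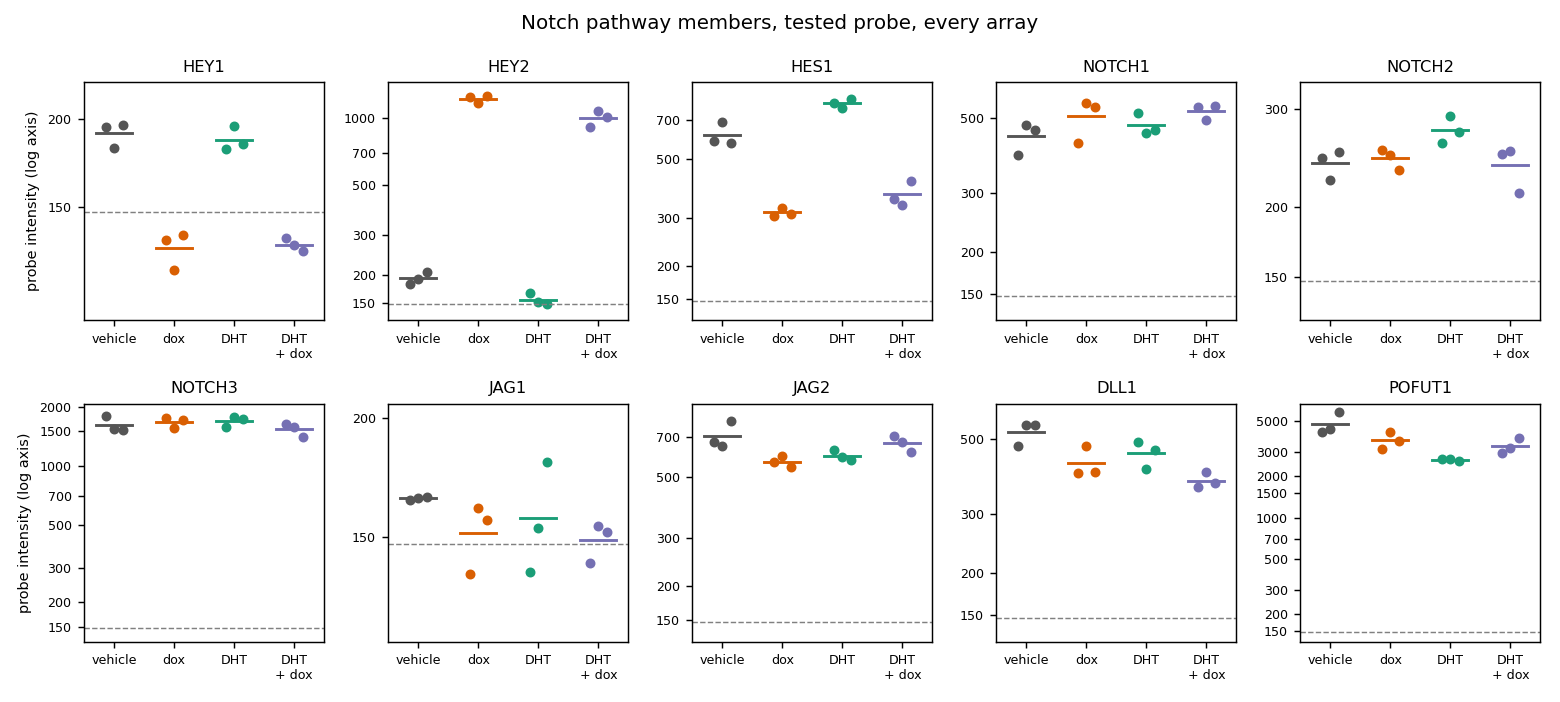
Normalised intensity (log scale) of the tested probe of each of the 10 genes on each of the 12 arrays, grouped as vehicle, dox, DHT and DHT with dox; points are arrays, short lines are group means and the dashed line is the background limit of 147.5. HEY2 lay between 915.2 and 1253 on the 6 arrays with dox and between 148.2 and 204.3 on the 6 without.

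The targets HEY2 and HES1 held the widest differences among the 10 genes, and they moved in opposite directions with dox. HEY2, a HEY family repressor known for its role in heart and vessel development, was 6.33-fold higher with dox, while HES1, the classic Notch target that restrains differentiation, was 1.94-fold lower. HEY1, the close relative of HEY2, was read by its tested probe below the background limit wherever dox was given. Between the lowest and highest group mean, HEY2 spanned 2.98 log2, HES1 1.35, POFUT1 0.85, HEY1 0.54, DLL1 0.48 and JAG2 0.31. NOTCH1, NOTCH2, JAG1 and NOTCH3 spanned 0.25, 0.21, 0.15 and 0.14 log2.

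The promoters of HEY2 and HES1 are printed because these targets moved in opposite directions, and because each window holds 2 matches to the core of the RBPJ motif, in capitals. The windows run from 250 bases before to 25 bases after the RefSeq start site, on the plus strand of GRCh38.p14, at chr6:125749382-125749656 for HEY2 and chr3:194135898-194136172 for HES1.
HEY2: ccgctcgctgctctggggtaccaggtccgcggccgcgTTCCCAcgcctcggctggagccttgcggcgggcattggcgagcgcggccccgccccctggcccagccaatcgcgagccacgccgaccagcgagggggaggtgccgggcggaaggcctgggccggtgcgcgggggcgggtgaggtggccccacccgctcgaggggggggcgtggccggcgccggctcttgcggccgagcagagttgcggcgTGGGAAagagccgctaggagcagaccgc
HES1: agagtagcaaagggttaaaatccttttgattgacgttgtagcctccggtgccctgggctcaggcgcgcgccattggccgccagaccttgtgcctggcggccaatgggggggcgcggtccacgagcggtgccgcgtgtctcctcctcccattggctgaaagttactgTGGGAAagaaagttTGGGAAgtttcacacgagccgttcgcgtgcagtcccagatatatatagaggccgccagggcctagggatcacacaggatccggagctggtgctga
The motif was searched as TGGGAA on both strands. In HES1 the matches lay on the gene's strand, at -84 to -79 and -70 to -65 from the start. In HEY2 one lay on the opposite strand at -213 to -208 and the other on the gene's strand at -3 to 3. Of the other members, NOTCH1, NOTCH2, NOTCH3, JAG1, JAG2 and POFUT1 had an entry in the promoter table, with 0 matches each, and HEY1 and DLL1 had none. Among 27305 promoter windows of this length, 22.8% held at least 1 match and 3.41% at least 2. The RUNX core TGTGGT (in 12% of windows) and the E-box CACGTG bound by many helix-loop-helix factors (in 7.06%) had 0 matches in the 8 member windows. No matches overlapped each other, and a match or its absence describes these windows only.

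On the vehicle arrays HEY2 was read at 181.6, 191.4 and 204.3, and on the dox arrays at 1235, 1162 and 1253. On the DHT arrays it was read at 164.7, 150.3 and 148.2, and with DHT and dox together at 915.2, 1073 and 1010. No array with dox overlapped any without it, and all 12 were above the limit. The change with dox was 2.66 ± 0.08 log2 (SE, n = 3 per group, 95% interval 2.49 to 2.84, limma adjusted p = 1.8e-15), and in the presence of DHT it was 2.69 log2 or 6.46-fold (limma adjusted p = 1.9e-15). Low readings carry a share of background, and with the background median of 118.5 subtracted the same ratios became 15.0-fold and 24.9-fold. DHT lowered HEY2 by a small amount in cells without dox, with a log2 change of -0.32 ± 0.08 (1.25-fold, limma adjusted p = 0.0233). The 3 DHT arrays lay below the 3 vehicle arrays, close to the limit, and the ratio was 2.08-fold after background subtraction (adjusted p = 0.000434). Leaving out a single array ended this limma call when the array was vehicle replicate 2 (adjusted p = 0.056), vehicle replicate 3 (0.105), DHT replicate 2 (0.0779) or DHT replicate 3 (0.0879). With dox present, DHT changed HEY2 by -0.29 log2 (95% interval -0.46 to -0.11, limma adjusted p = 0.0586), which missed the threshold although those arrays did not overlap either. The order of HEY2 levels was DHT, vehicle, DHT with dox and dox, and the last 2 were not separated by the test. In bulk RNA of this kind, fewer cells expressing a gene and less RNA per cell cannot be told apart.

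HES1 was read at 581.8, 686.7 and 570.7 on vehicle arrays and at 306.9, 328.3 and 312.1 on dox arrays. It was read at 805.3, 770.6 and 838.3 on DHT arrays and at 353.1, 337.6 and 414.0 with DHT and dox together. The DHT arrays were the highest, the vehicle arrays came next, and all 6 arrays with dox lay below all 6 without. Dox lowered HES1 with a log2 change of -0.95 ± 0.09 (1.94-fold, limma adjusted p = 5.83e-08) without DHT and of -1.13 log2 (2.19-fold, limma adjusted p = 3.68e-09) with it. DHT alone raised it by 0.40 ± 0.09 log2 (1.32-fold, limma adjusted p = 0.00926), but leaving out vehicle replicate 3 ended that call (0.35 log2, adjusted p = 0.0543). With dox present the DHT difference was 0.22 log2 (limma adjusted p = 0.197), so dox and DHT with dox were not separated in the order of levels. Compared with vehicle, the combined treatment left HES1 lower by 1.67-fold (log2 change -0.74, limma adjusted p = 1.76e-06).

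The tested HEY1 probe was read at 194.4, 181.6 and 195.7 on vehicle arrays and at 181.2, 194.9 and 183.8 on DHT arrays. It was read at 134.4, 121.9 and 136.6 with dox and at 135.5, 132.2 and 129.8 with DHT and dox. None of the 6 arrays with dox was above the limit, all 6 without it were, and the sets did not overlap. HEY1 was therefore at least 1.29-fold lower on dox arrays than on vehicle arrays (limma adjusted p = 2.5e-05, measured means 131.0 and 190.6). It was at least 1.26-fold lower on DHT with dox arrays than on DHT arrays (limma adjusted p = 7.2e-05, measured means 132.5 and 186.6). DHT and vehicle arrays differed by -0.03 log2 (95% interval -0.20 to 0.14, limma adjusted p = 0.89). A dimmer HEY1 probe was read at 178.5, 150.7 and 146.2 on vehicle arrays and at 116.2, 133.6 and 118.4 on dox arrays. No dox array of this probe was above the limit, so it was lower with dox by at least 1.07-fold. The measured log2 change was -0.37 (limma fit per probe, adjusted p = 0.0185). Under DHT its change with dox was -0.18 (limma fit per probe, adjusted p = 0.263), and 1 of the 3 DHT with dox arrays, at 154.5, overlapped the DHT arrays.

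The HEY genes are also expressed in vessel walls, so endothelial markers were read beside them. Of 8 endothelial genes with a probe, PECAM1, CDH5, VWF and KDR among them, 6 were above the limit on no array and 1 on all. Their summed intensity was 1019 to 1044 on vehicle, 976 to 1025 on dox, 1019 to 1034 on DHT and 966 to 997 on DHT with dox arrays. The breast luminal list did not move one way with dox. Its sum was 50965 to 53351 on vehicle and 48962 to 51867 on DHT arrays, against 73014 to 75405 on dox and 68451 to 71267 on DHT with dox arrays. Within it TFF1 went from a mean of 9173 on vehicle to 20931 on dox arrays, while ESR1 went from 4370 to 2838 (-0.62 log2, limma adjusted p = 1.09e-05) and GATA3 from 3888 to 2702 (-0.53 log2, limma adjusted p = 7.29e-06). The prostate luminal sum was lower with dox, at 1223 to 1292 against 1612 to 1705 on vehicle arrays. It was higher with DHT alone, at 2153 to 2346, and lower with DHT and dox together, at 1377 to 1458. Of its 7 genes with a probe, 2 were above the limit on all arrays and 2 on none, and 3 passed it in at least 1 group. KLK3 and KLK2 did not rise with DHT: their means were 140.0 and 131.0 on vehicle and 127.1 and 117.1 on DHT arrays, below the limit. The basal epithelial sum was 1405 to 1521 on vehicle, 1043 to 1189 on dox, 1209 to 1384 on DHT and 988 to 1054 on DHT with dox arrays. The neuroendocrine sum was 618 to 669 on vehicle, 727 to 781 on dox, 593 to 629 on DHT and 650 to 689 on DHT with dox arrays. Of 3 basal epithelial genes with a probe, 1 was above the limit on all arrays and 2 on none. Of 4 neuroendocrine genes with a probe, 1 was above it on all arrays and 2 on none. The prostate luminal, basal epithelial and neuroendocrine sums therefore include probes at background. The part of these marker shifts in the results for the 10 genes was not tested.

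**Figure D2:**
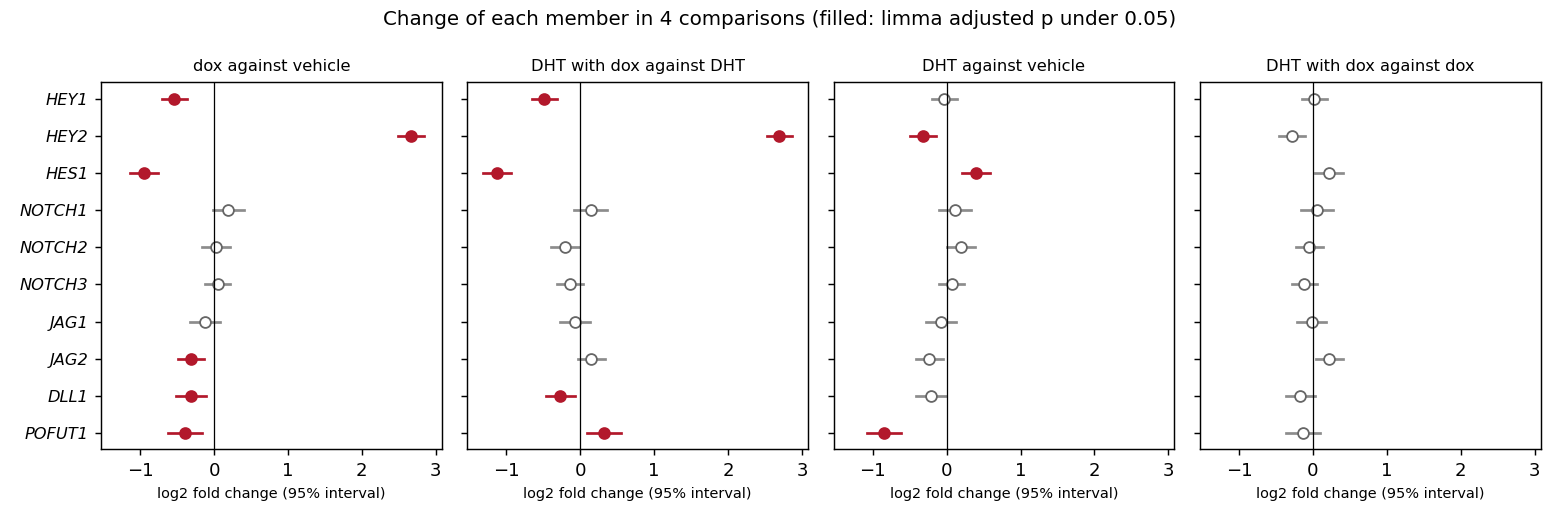
Log2 fold change of the tested probe of each of the 10 genes, with 95% confidence intervals from limma, in 4 comparisons: dox without and with DHT, and DHT without and with dox; filled points passed an adjusted p of 0.05. HEY2 stands at 2.66 and 2.69 for dox, HES1 and HEY1 lie below 0 there, and no gene is filled for DHT with dox against dox.

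None of the 3 receptors passed the test in any comparison. NOTCH3 was read from 1398 to 1800 and NOTCH1 from 388.9 to 555.8 across the 12 arrays, and NOTCH2 from 211.8 to 291.0 by the 1 of its 3 probes whose mean passed the limit in any group. Over the 18 receptor values in the 6 pairwise comparisons, log2 changes ran from -0.21 to 0.25, their 95% intervals from -0.40 to 0.47, and limma adjusted p from 0.0621 to 0.917. With the interaction included, 3 of 21 receptor values had an unadjusted p under 0.05 and 0 were called by limma.

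The NOTCH1 values came nearest to a call. On vehicle arrays NOTCH1 was read at 388.9, 476.7 and 459.8, on dox arrays at 422.6, 555.8 and 541.4, and on DHT with dox arrays at 538.4, 493.2 and 541.8. Vehicle and dox arrays overlapped, whereas the DHT with dox arrays were all above the vehicle arrays. The difference between dox and vehicle was 0.19 log2 (95% interval -0.02 to 0.41, limma adjusted p = 0.168), and without dox replicate 1, the lowest of the dox arrays, it became 0.32 (adjusted p = 0.0218). Between DHT with dox and vehicle it was 0.25 log2 (0.04 to 0.47, limma adjusted p = 0.0621), which passed the threshold with centred arrays (0.0341), without vehicle replicate 2 (0.0445) or without dox replicate 1 (0.0325).

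NOTCH2 was read at 245.2, 223.2 and 250.5 on vehicle arrays, 260.2, 291.0 and 272.6 on DHT arrays and 248.9, 252.1 and 211.8 on DHT with dox arrays. The DHT arrays lay above both other sets, with differences of 0.20 log2 against vehicle (95% interval 0.01 to 0.38, limma adjusted p = 0.209) and of -0.21 for DHT with dox against DHT (-0.40 to -0.02, limma adjusted p = 0.0762), neither called. For NOTCH3 the change with dox was 0.05 log2 (-0.12 to 0.22, limma adjusted p = 0.706).

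Among the ligands, DLL1 was called lower with dox both without and with DHT. JAG2 was called lower only without DHT and by 1 probe, and JAG1 was not called in any comparison. DLL1, the Delta-like ligand, was read at 473.8, 549.6 and 546.4 on vehicle arrays and at 395.0, 474.0 and 396.8 on dox arrays. It was read at 488.4, 405.4 and 463.0 on DHT arrays and at 359.8, 396.9 and 368.3 with DHT and dox. The DHT with dox arrays lay below all vehicle and all DHT arrays, while 1 dox array, at 474.0, was level with the lowest vehicle array. The log2 change with dox was -0.31 ± 0.10 (1.24-fold, limma adjusted p = 0.0149), and under DHT -0.27 (1.20-fold, limma adjusted p = 0.0351). The first call ended on leaving out vehicle replicate 2 (adjusted p = 0.0629), vehicle replicate 3 (0.0588), dox replicate 1 (0.0689) or dox replicate 3 (0.0686). The call under DHT was lost with centred arrays (0.0611) and on leaving out replicate 1 (0.154) or 3 (0.0985) of DHT, or replicate 1 (0.107) or 3 (0.0868) of DHT with dox. The combined treatment against vehicle gave -0.48 log2 (1.39-fold, limma adjusted p = 0.000439), which kept its call under every alternative run. In order the levels were DHT with dox, dox, DHT and vehicle, and no neighbouring pair was separated by the test.

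JAG2, a Jagged ligand, was read by its brightest probe at 672.2, 646.2 and 800.8 on vehicle arrays and at 567.4, 594.3 and 542.6 on dox arrays. It was read at 627.4, 590.6 and 575.3 with DHT and at 705.0, 668.7 and 614.2 with DHT and dox. Dox arrays and DHT arrays each lay below all vehicle arrays, and DHT with dox arrays overlapped both vehicle and DHT arrays. The log2 change with dox was -0.31 ± 0.09 (1.24-fold, limma adjusted p = 0.00896). Leaving out vehicle replicate 3, the array at 800.8, ended this call (-0.22, adjusted p = 0.075). With DHT present, the change with dox was 0.15 log2 (limma adjusted p = 0.209), of the opposite sign and not called. DHT alone changed JAG2 by -0.24 log2 (95% interval -0.42 to -0.05, limma adjusted p = 0.108). A second JAG2 probe, at 283.6 to 309.3 on dox and 298.3 to 330.0 on vehicle arrays, changed by -0.07 log2 (limma fit per probe, adjusted p = 0.666), and the third was below the limit in every group.

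JAG1 was dim, at 164.3 to 165.2 on vehicle, 137.2 to 161.0 on dox, 137.9 to 179.9 on DHT and 141.0 to 154.2 on DHT with dox arrays. It was above the limit on 9 of 12 arrays, so differences in this ligand were hardly measurable here. Its change with dox was -0.12 log2 (95% interval -0.33 to 0.08, limma adjusted p = 0.361).

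POFUT1 was the member with the clearest change under DHT alone, but that change was seen by only 1 of its probes. The brightest probe was read at 4184, 4387 and 5789 on vehicle arrays and at 3148, 4167 and 3603 on dox arrays. It was read at 2656, 2679 and 2560 with DHT and at 2962, 3191 and 3753 with DHT and dox. The DHT arrays were the lowest and overlapped no other group, and the vehicle arrays were the highest. DHT changed it by -0.85 ± 0.11 log2 (1.80-fold, limma adjusted p = 3.84e-05) and dox by -0.39 ± 0.11 (1.31-fold, limma adjusted p = 0.00889), while dox added to DHT raised it by 0.32 log2 (1.25-fold, limma adjusted p = 0.0282). The dox call ended on leaving out vehicle replicate 3, the array at 5789 (-0.24, adjusted p = 0.0814), or dox replicate 1 (-0.29, 0.0661) or with the mean of the gene's probes (-0.16, 0.0625). Under DHT the dox call was lost with the mean of the probes (0.10, adjusted p = 0.228) and on leaving out any DHT array (0.0608, 0.0514 and 0.0804 for replicates 1 to 3) or replicate 3 of DHT with dox (0.22, 0.165).

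The second POFUT1 probe was read at 346.4, 333.7 and 315.8 on vehicle arrays and at 381.2, 360.9 and 405.0 on DHT arrays, in the opposite direction. Its log2 change with DHT was 0.20 (limma fit per probe, adjusted p = 0.171), and with dox it was 0.06 (adjusted p = 0.652). The third probe, close to the limit, changed by -0.09 with DHT (adjusted p = 0.685) and by -0.15 with dox (0.275), and the fourth was below the limit in every group. The fall of POFUT1 is therefore a statement about 1 probe. Which transcripts the probes read was not analysed here.

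**Figure D3:**
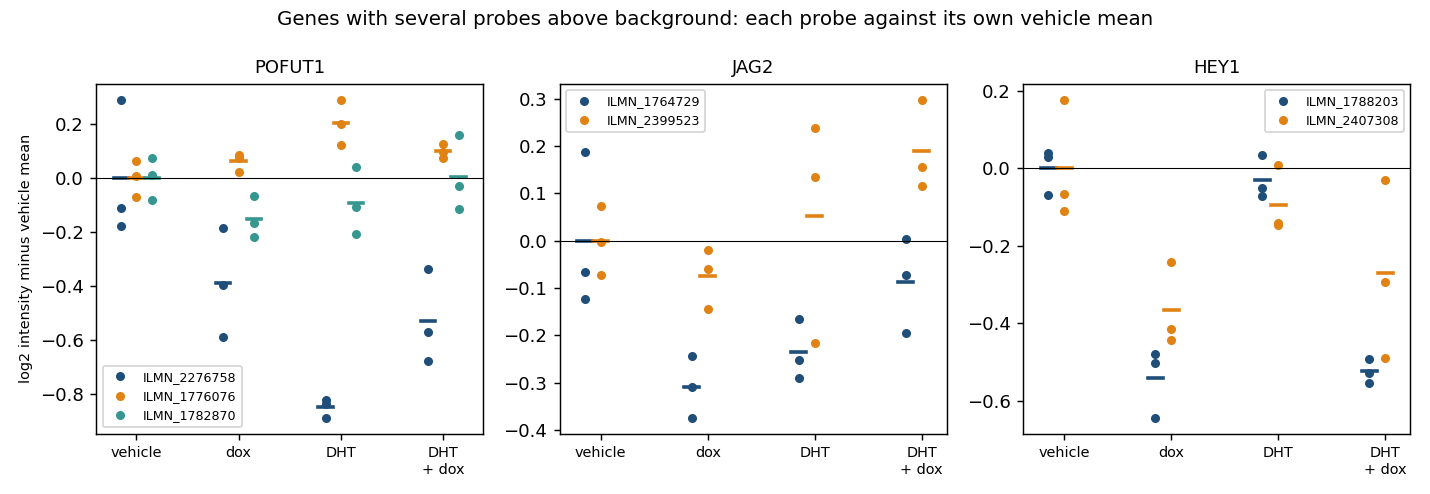
Log2 intensity of each array minus the mean of the vehicle arrays of the same probe, for every probe above the background limit of POFUT1, JAG2 and HEY1; points are arrays, short lines are group means and colours are probes. With DHT the brightest POFUT1 probe has a mean of -0.85 and the second one of 0.20.

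The counts over the 10 genes take each by its brightest probe. In fits per probe no other probe of POFUT1 or JAG2 was called, and the dimmer HEY1 probe only for dox against vehicle. Dox against vehicle raised 1 and lowered 5 of the 10, where 16.1% of all genes tested were called higher and 16.7% lower. Their median log2 change was -0.22 against -0.01 over all genes, and for 6 of 10 genes the dox and vehicle arrays did not overlap, as for 43.5% of all genes tested. With DHT present, dox raised 2 (HEY2 and POFUT1) and lowered 3 (HEY1, HES1 and DLL1), against 14.3% and 19.2% of all genes, with a median of -0.10 against -0.02. These counts rest on single arrays in part: without vehicle replicate 3 the calls with dox fell from 6 to 3, and with DHT present the 5 calls fell to 3 on leaving out replicate 1 or 3 of DHT, or replicate 3 of DHT with dox. The calls for HEY2 and HES1 in both dox comparisons held under every alternative run.

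DHT against vehicle raised HES1 and lowered HEY2 and POFUT1, 1 higher and 2 lower where 4.5% and 3.1% of all genes tested were called. The median of the 10 was -0.05 against 0.00 over all genes, and without vehicle replicate 3 only the POFUT1 call was left. In the presence of dox, DHT changed 0 of the 10 by limma, against a background of 2.04% higher and 2.24% lower at the same adjusted threshold. At an unadjusted limma p under 0.05 there were 3 (HEY2 at 0.00274, JAG2 at 0.0196 and HES1 at 0.0272). No share over all genes is given at that unadjusted threshold, here or for the other unadjusted counts. Dox and DHT comparisons against vehicle share the 3 vehicle arrays, so a high vehicle array enters both.

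The combined treatment against vehicle raised 1 (HEY2, by 2.37 log2 or 5.19-fold, limma adjusted p = 8e-15) and lowered 4 (HEY1, HES1, DLL1 and POFUT1). The background there was 16.6% higher and 20.2% lower, and the median of the 10 was -0.12 against -0.02. Dox set directly against DHT gave 2 higher (HEY2, by 2.98 log2, and POFUT1, by 0.46) and 2 lower (HES1, with a log2 change of -1.35, and HEY1, at least 1.26-fold lower), against 16.0% and 18.0% of all genes. The limma adjusted p was 1.84e-16 for HEY2, 1.76e-10 for HES1, 4.39e-05 for HEY1 and 0.0024 for POFUT1 in that comparison.

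Whether the dox effect differed with and without DHT was tested as an interaction, and 0 of the 10 genes passed, against 0.289% of all genes tested by limma. For HEY2 the difference between the dox effects was 0.03 log2 (95% interval -0.22 to 0.28, adjusted p = 0.96) and for HES1 -0.18 (-0.45 to 0.09, adjusted p = 0.679). At an unadjusted p under 0.05 there were 2 of the members, JAG2 and POFUT1. The difference was 0.46 log2 for JAG2 (limma adjusted p = 0.157) and 0.71 ± 0.16 log2 for POFUT1 (limma adjusted p = 0.0544). POFUT1 passed without the filter on dim probes (adjusted p = 0.0369) and without vehicle replicate 1 (0.0238), dox replicate 2 (0.0274) or DHT with dox replicate 1 (0.0489). Its second probe gave the interaction the opposite sign (-0.17 log2, limma fit per probe, adjusted p = 0.688).

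The rest of the pathway was read from a list of 55 other genes, of which 51 had a probe named here and 41 were tested. That list was chosen with earlier results of these data known, so setting its counts beside the shares over all genes is descriptive only. Dox raised 6 and lowered 11 of the 41, and with DHT present it raised 4 and lowered 13, with medians of -0.07 and -0.13 log2. Over all genes tested the corresponding shares were 16.1% higher and 16.7% lower without DHT and 14.3% and 19.2% with it, and the medians -0.01 and -0.02. Among the receptor proteases ADAM10, which makes the first cleavage of a ligand-bound receptor, was lower with dox by a log2 change of -0.67 (mean 476.2 against 761.0, limma adjusted p = 1.4e-05) and under DHT by -0.77 (497.1 against 851.9, limma adjusted p = 2.38e-06). The γ-secretase subunits APH1B and NCSTN were lower as well, by log2 changes of -0.41 and -0.32 without DHT and -0.35 and -0.26 with it. The other 5 of the 8 proteases and subunits tested were not called in either dox comparison.

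In the nuclear complex, KAT2B, an acetyltransferase that coactivates Notch transcription, changed by -1.05 log2 with dox (903.5 against 1874, limma adjusted p = 1.24e-08) and by -1.22 under DHT. Its paralog KAT2A moved up, by 0.43 and 0.42 log2. RBPJ, the DNA-binding subunit itself, was not called without DHT (0.17 log2) and was higher by 0.27 with it (limma adjusted p = 0.0318). SNW1 was called lower with dox only without DHT (-0.26 log2, limma adjusted p = 0.0478). Only under DHT were CREBBP (-0.21, limma adjusted p = 0.0461) and the Mastermind-like MAML2 (-0.34, 0.0085) called lower. MAML2 was dim there, at means of 116.8 against 147.7, so the size of its fall is uncertain. The Groucho corepressors, which HES proteins recruit, were split: TLE1 changed by -0.77 log2 with dox (1711 against 2923, limma adjusted p = 1.63e-08) and TLE2 by -0.50, whereas TLE3 and TLE4 rose by 0.25 and 0.28. Under DHT the falls of TLE1 and TLE2 were -0.76 and -0.65 log2, and the values of TLE3 (0.13) and TLE4 (0.17) were not called.

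Among genes of trafficking and turnover, DTX2, a Deltex ubiquitin ligase, changed by -0.62 log2 with dox and -0.43 under DHT. NUMB, an inhibitor of Notch that promotes receptor endocytosis, changed by -0.24 and -0.28, and MIB2, a ligase for the ligands, by -0.26 and -0.23. FBXW7, which marks the active receptor fragment for degradation, rose by 0.29 with dox and stood at 0.05, not called, under DHT. Of 5 other targets tested (HEYL, HES2, HES4, HES6 and NRARP), HES6, which antagonises HES1, rose by 0.44 and 0.43 and HES2 changed by -0.43 and -0.41. The calls of ADAM10, APH1B, DTX2, HES2, HES6, KAT2A, KAT2B, TLE1 and TLE2 held under all alternatives in both dox comparisons, and NUMB's under DHT. The other 8 of 17 calls without DHT and 7 of 17 with it were lost under at least 1, at limma adjusted p of 0.0518 to 0.456 and 0.0506 to 0.631.

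**Figure D4:**
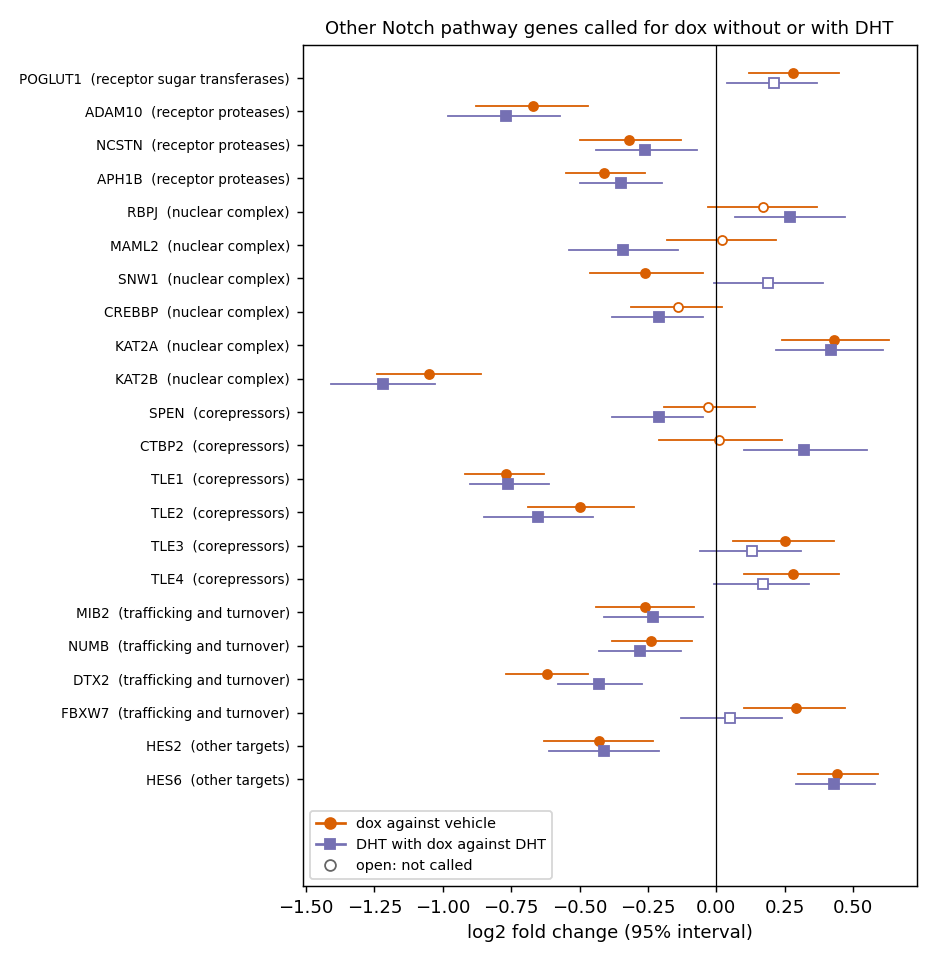
Log2 fold change with dox, without DHT (circles) and with DHT (squares), of the other Notch pathway genes called in either comparison, labelled with their role; lines are 95% confidence intervals from limma and open symbols did not pass an adjusted p of 0.05. KAT2B stands lowest, at -1.05 and -1.22.

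DHT without dox called 4 of the 41: APH1B (0.25 log2) and KAT2B (0.30) were higher and SNW1 (-0.41), a coregulator of the RBPJ complex, and DTX2 (-0.34) were lower, where 4.5% of all genes tested were called higher and 3.1% lower. None of these 4 calls held under every alternative, with limma adjusted p of 0.0504 to 0.505 where they were lost. With dox present DHT called 2, APH1B (0.30) higher and the fringe enzyme LFNG (-0.31) lower, and neither held under every alternative (0.0556 to 0.338); the shares over all genes tested were 2.04% and 2.24%. The combined treatment against vehicle raised 4 and lowered 14 of the 41, against 16.6% and 20.2% of all genes tested. Dox against DHT raised 4 and lowered 11, against 16.0% and 18.0%. No gene of the 41 was called for the interaction by limma, while 2 had an unadjusted p under 0.05.

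HEY2 and HES1 were the members whose group means spanned at least 1 log2 unit, and for each the 5 genes with the closest profile were found by the root mean square difference of centred log2 intensities over the 12 arrays. For HEY2 they were IGSF1 (0.12 log2), ARHGAP36 (0.17), PKIB (0.21), MGP (0.23) and MYB (0.27). MGP encodes an inhibitor of calcification and went from a mean of 476.1 on vehicle to 4525 on dox arrays, and MYB, a transcription factor, from 451.8 to 2082. ARHGAP36 was above the limit on 1 of 3 vehicle arrays, so its low side is only a bound. For HES1 they were PMS2P4 (0.08), ID3 (0.10), ALAD (0.12), SMAD3 (0.12) and RND3 (0.13). ID3, an inhibitor of helix-loop-helix factors, went from 2946 to 1394 and SMAD3, a transducer of TGF-β signals, from 823.2 to 493.8. PMS2P4 is a pseudogene whose probe may read near-identical copies, so its identity is uncertain. These likenesses describe 12 arrays in 4 groups and carry no test.

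**Figure D5:**
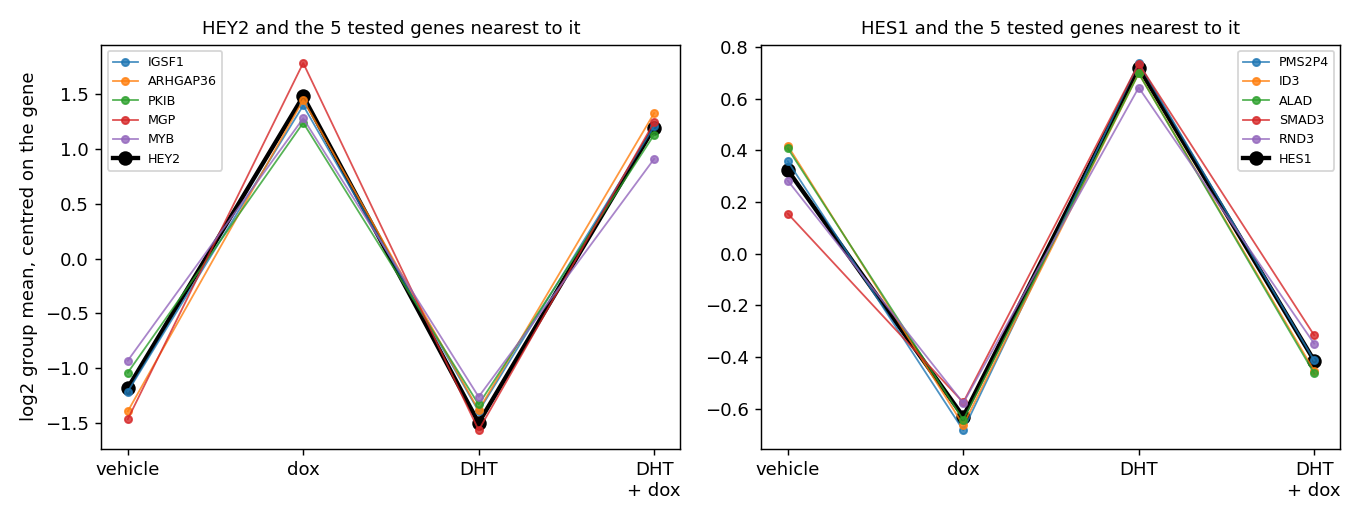
Mean log2 intensity in the 4 groups, centred on each gene's own mean, for HEY2 and HES1 and the 5 genes nearest to each. The HEY2 set is high in both groups with dox, and the HES1 set is low in both.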

How the data were processed

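Total RNA from 12 cultures was hybridised to single-colour Illumina BeadChips. The deposited table gives 1 normalised intensity per probe and array on a linear scale for 47230 probes. The submitters' processing notes name GenomeStudio, and its version and the normalization method are not stated there; sorted array columns differed by at most 0.8, as after quantile normalization. Equal columns remove any overall shift between groups. Of the probes, 30113 had 1 gene symbol in the platform annotation, 8 several and 17109 none; 30074 were named by gene ID through the RefSeq table of GRCh38.p14, and 39 kept the platform symbol.

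Intensities were taken to log2 with no further normalization or subtraction. The background limit of 147.5 was applied to group means. Each of 12122 genes was represented by its brightest probe and tested with limma 3.58.1 (R 4.3.3), lmFit and eBayes with a trend, on 4 group means over all 12 arrays; p-values were two-sided and adjusted by Benjamini-Hochberg over all genes tested, with a threshold of 0.05. Where no array of an arm was above background, folds are bounds with that arm set to the limit of 147.5. Precision is limited by 3 arrays per group. Python (3.11.15) with matplotlib (3.10.9), numpy (2.4.6) and pandas (2.3.3) made the tables and plots. The fit was tested on simulated data.

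The members, the pathway list and the lineage markers were chosen with earlier results of these data known. All probes of the members are described; the other genes come from the list of 55 and, for members spanning at least 1 log2 unit, the 5 nearest profiles. Replicate numbers are shared by the groups in the labels. Over 18 pairs of arrays with the same number, deviations from group means correlated at -0.132 to 0.227, with 1 pair over 0.1, so the numbers were not treated as pairing the samples. The 19 alternatives were other groups in the fit, a replicate block, no filter, the mean of a gene's probes, no trend, background subtraction with a floor of 20, centred arrays and each array left out; a fit per probe was added after seeing the data.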

Additional observations from a re-analysis of the deposited data

How the results depend on the processing

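Over all members and comparisons, 1299 of 1348 alternative values stayed on their side of the threshold, 32 lost a call, 10 gained one and 7 changed the sign of a called value. Among the 1299 were 31 values, called neither way, whose sign differed from that reported, and 5 of them came from other probes of JAG2 and POFUT1. These alternative values lay within 0.19 log2 of 0, and the reported ones within 0.71. The largest reported value was the POFUT1 interaction, at 0.71 against -0.17 by the second probe. The 7 called values that changed sign came from other probes of POFUT1. The second probe gave log2 changes of 0.06 for dox against vehicle, 0.20 for DHT against vehicle, -0.11 for DHT with dox against DHT, 0.10 for DHT with dox against vehicle and -0.14 for dox against DHT. The third gave 0.00 and -0.06 in the last 2 of these; the cause was not tested. With the mean of a gene's probes, POFUT1 lost its calls for DHT with dox against vehicle (-0.14, limma adjusted p = 0.0917) and dox against DHT (0.09, 0.33). HEY2 has no other probe, so its value for DHT with dox against dox stayed at -0.29 in that fit. Its limma adjusted p moved to 0.0415 from 0.0586, so members called there went from 0 to 1. The dimmer HEY1 probe was not called for DHT with dox against vehicle (-0.27, 0.0718) or dox against DHT (-0.27, 0.0782).

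The replicate numbers were not treated as pairing the samples, and 2 of 12 arrays were most like an array of their own number. With the replicate block 69 of 70 member values stayed on their side of the threshold. The exception was the interaction of POFUT1 (limma adjusted p = 0.0259), which took the members called from 0 to 1, as did omitting the filter (1). For the 28 pathway genes called in some comparison, 6 of 196 values lost their call under the block and 190 stayed on their side of the threshold.

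With 1 array left out, the members called ranged from 3 to 6 for dox against vehicle, 1 to 3 for DHT against vehicle, 3 to 5 for DHT with dox against DHT and 0 to 1 for the interaction. Genes called over the array ranged from 549 to 925 for DHT against vehicle, where the full count was 921, from 253 to 538 for DHT with dox against dox (518) and from 9 to 52 for the interaction (35, and 18 after background subtraction). Fewer arrays enter these fits by construction.

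With the limit at the 99th percentile of the background probes (174.4), 9 members were above it on vehicle arrays and 8 in each other group, against 10, 9, 10 and 9 for vehicle, dox, DHT and DHT with dox. Dim probes limit what HEY1, JAG1 and the low side of HEY2 can show.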
